A study of Mus musculus with 8 samples.

Results

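The 10 genes described here mark the lining cells of blood and lymphatic vessels: Pecam1, Cdh5, Kdr, Flt1, Tek, Tie1 and Vwf for blood vessels, and Lyve1, Prox1 and Flt4 for lymphatic vessels. They were taken by gene name, from a list drawn up with earlier results of these data known. All 10 were found among the 16130 genes of the deposited count table. RNA came from the distal colon of mice that the labels describe as Tcf4Het/+ ApcMin/+, so every animal in both groups carried a heterozygous Tcf4 allele and the ApcMin allele, a truncating mutation of the Wnt pathway brake Apc that makes intestinal adenomas grow. Housing was enriched (EE, 4 libraries) or conventional and non-enriched (NE, 4 libraries), in each case for 4 months, and the comparison asks which transcripts differ with housing. Whether the 8 libraries stem from 8 different animals is not stated, so p-values measure only the spread between these samples. The labels name no age, sex or tumour content.

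Vessels grow and stay perfused through 2 receptor systems on endothelial cells. Vascular endothelial growth factors (VEGFs) act on the receptors encoded by Flt1, Kdr and Flt4, and angiopoietins act on TIE2, encoded by Tek, with its relative Tie1. Lymphatic endothelium is set apart by the transcription factor Prox1, by the VEGF-C receptor made from Flt4 and by the hyaluronan receptor Lyve1, and in the gut these vessels drain absorbed fat and immune cells.

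The counts in the table summed to between 4735764 and 10586851 per library, so that 1 count was worth between 0.0938 and 0.212 CPM (counts scaled to a common library size and composition). All 10 genes had counts in all 8 libraries, from 20 for Flt4 in EE 4 to 2236 for Prox1 in EE 4. Colon epithelium markers summed to between 10183 and 17744 CPM in EE and between 15354 and 21775 CPM in NE. Library EE 4 stood apart from the other 7: on the first principal component, drawn from the 500 genes that varied most and holding 58.7% of their variance, it lay at 46.3, and the others lay between −14.2 and 6.36. Fold changes of the 10 genes are therefore also given without EE 4. The deposited fold changes carry the opposite sign to EE minus NE for 97.8% of the genes tested, and the header does not say which group is on top. A ratio of NE over EE and exchanged column names cannot be told apart, and exchanged names would turn every EE and NE direction given here, so EE and NE stand for the column labels.

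Prox1 parted from the other vessel genes. It averaged 230 ± 108 CPM in EE and 109 ± 25.8 CPM in NE (SD, n = 4 each), a 2.11-fold difference, while Lyve1 and Flt4 had lower means in EE. Pecam1, Kdr, Tek, Tie1 and Vwf also had lower means in EE, and for each of them the lowest of the 8 values was in EE 4. Cdh5 and Flt1 had slightly higher means in EE, and EE 4 lay close to the other libraries for both.

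No gene of the 10 was called. With edgeR's quasi-likelihood test and Benjamini-Hochberg adjustment over 14311 genes, 0 of the 10 genes had an adjusted p under 0.05, as did 0 genes of the whole table (0%), and the lowest adjusted p was 0.520. At an unadjusted p under 0.05 there was 1 of the 10 genes, Prox1, against 9.48% of all genes tested. Prox1 was higher in EE, as were 5.73% of all genes at that p, and 0 of the 10 were lower in EE at it, against 3.75%. The EE and NE values overlapped in all 10 genes, while 4.89% of all genes tested had groups that did not overlap, 2.87% with EE higher and 2.02% with EE lower. The log2 fold change (EE minus NE) was negative in 7 of the 10 genes, against 49.7% of all genes, and the median was −0.34 over the 10 and 0.0021 over all genes. Without EE 4 the median over the 10 was −0.10.

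**Figure D1:**
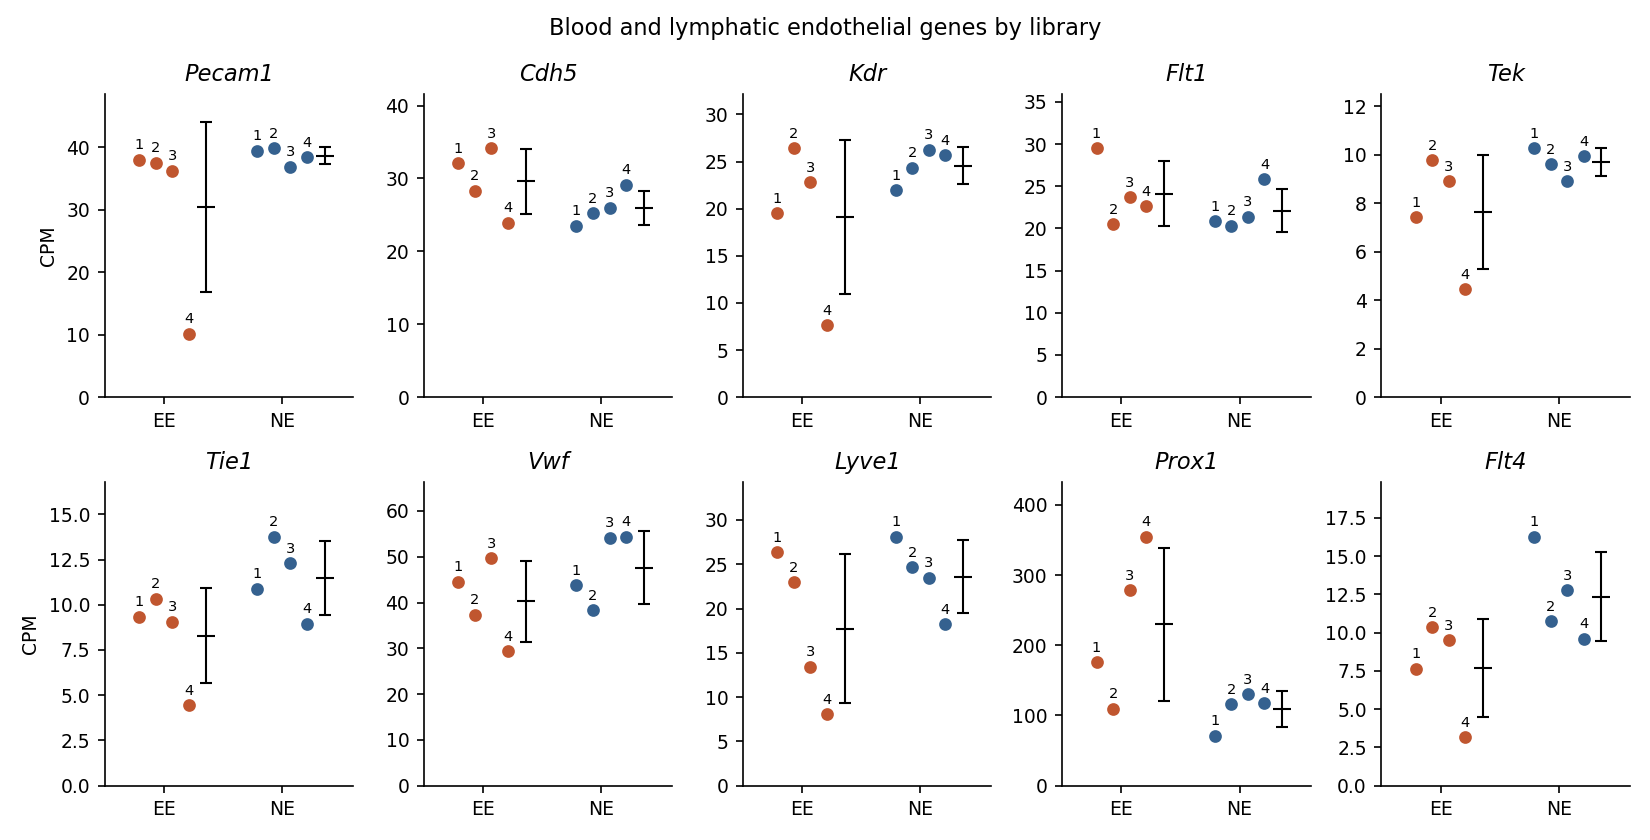
CPM of the 10 genes in each library, with EE to the left of NE; each point is a library, numbered by replicate, and the bar is the mean ± SD of the 4 libraries. EE 4 is the lowest point for Pecam1 (10.1 CPM) and Kdr (7.61 CPM) and the highest for Prox1 (354.5 CPM).

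Pecam1 and Cdh5 encode proteins of the contacts between endothelial cells: PECAM1 is an immunoglobulin-type adhesion molecule, and CDH5 is VE-cadherin, the cadherin of the endothelial adherens junction. Pecam1 measured 38.0, 37.5, 36.3 and 10.1 CPM across EE 1 to EE 4, against 39.5, 39.8, 36.9 and 38.5 CPM in NE 1 to NE 4. The value of EE 4 was far below the other 7, which lay within a few CPM of each other. Pecam1 had an EE minus NE log2 value of −0.35 (SE 0.33, edgeR adjusted p = 0.681), and −0.05 (SE 0.11) without EE 4.

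Cdh5 had no such low value. It measured 32.1, 28.3, 34.1 and 23.9 CPM across EE 1 to EE 4, against 23.5, 25.2, 25.996 and 29.2 CPM in NE 1 to NE 4. EE 4 had the lowest EE value but lay inside the NE range, and EE 1 and EE 3 lay above every NE library. For Cdh5 the log2 fold change was 0.19 (SE 0.15, edgeR adjusted p = 0.630), with 0.29 (SE 0.13) without EE 4 and 0.12 (SE 0.15) without EE 3. The ratio of Cdh5 to Pecam1 in CPM was 2.36 in EE 4, between 0.755 and 0.942 in the other EE libraries and between 0.596 and 0.759 in NE.

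The VEGF receptors Kdr and Flt1 also parted in EE 4. KDR is the main signalling receptor for VEGF-A in blood vessels, and FLT1 binds VEGF-A more tightly, signals weakly and is also made as a soluble decoy. Kdr measured 19.5, 26.4, 22.8 and 7.61 CPM across EE 1 to EE 4, against 21.9, 24.4, 26.3 and 25.7 CPM in NE 1 to NE 4. EE 4 was below all other libraries and EE 1 below every NE library, while EE 2 was marginally above the highest NE library. That gave Kdr a fold change on the log2 scale of −0.37 (SE 0.30, edgeR adjusted p = 0.639), with −0.09 (SE 0.14) without EE 4 and −0.57 (SE 0.31) without EE 2.

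Flt1 measured 29.5, 20.5, 23.7 and 22.7 CPM across EE 1 to EE 4, against 20.8, 20.4, 21.4 and 25.9 CPM in NE 1 to NE 4. EE 4 lay inside the NE range, and the highest value of all was in EE 1. For Flt1 the log2 fold change was 0.12 (SE 0.15, edgeR adjusted p = 0.761), and 0.16 (SE 0.16) without EE 4. Without EE 1 it was 0.015 (SE 0.15), without EE 2 it was 0.19 and without NE 4 it was 0.21. The Flt1 to Kdr ratio in CPM was 2.98 in EE 4 and 1.51 in EE 1, against 0.775 and 1.04 in EE 2 and EE 3 and between 0.814 and 1.01 in NE. EE 1, EE 3 and EE 4 thus had a higher ratio than every NE library.

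The upstream sequences of the 3 VEGF receptors and of Prox1 are shown as the windows of the genes whose levels in EE 4 lay far apart. Each runs 5′ to 3′ on the gene's strand from 250 bases before to 50 bases after the annotated start, as RefSeq gives it on GRCm38.p6. Capitals mark the letters AGGAAG, a core recognised by ETS factors that regulate many endothelial genes, and GGGCGG, the GC box bound by Sp1-type factors, each on either strand.
Flt1, chr5:147725962-147726261, minus strand: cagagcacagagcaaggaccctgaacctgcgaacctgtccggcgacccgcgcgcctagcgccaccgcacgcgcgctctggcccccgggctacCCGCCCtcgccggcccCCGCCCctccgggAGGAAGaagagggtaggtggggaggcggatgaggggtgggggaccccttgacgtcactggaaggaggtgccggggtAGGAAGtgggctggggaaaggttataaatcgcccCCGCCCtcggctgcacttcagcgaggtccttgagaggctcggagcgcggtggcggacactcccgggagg
Kdr, chr5:75978406-75978705, minus strand: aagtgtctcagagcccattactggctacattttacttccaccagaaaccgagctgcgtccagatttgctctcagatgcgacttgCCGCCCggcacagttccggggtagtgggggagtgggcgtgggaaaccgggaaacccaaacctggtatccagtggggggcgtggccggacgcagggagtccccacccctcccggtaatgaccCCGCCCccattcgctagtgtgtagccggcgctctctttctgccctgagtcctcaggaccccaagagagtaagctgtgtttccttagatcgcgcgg
Flt4, chr11:49609429-49609728, plus strand: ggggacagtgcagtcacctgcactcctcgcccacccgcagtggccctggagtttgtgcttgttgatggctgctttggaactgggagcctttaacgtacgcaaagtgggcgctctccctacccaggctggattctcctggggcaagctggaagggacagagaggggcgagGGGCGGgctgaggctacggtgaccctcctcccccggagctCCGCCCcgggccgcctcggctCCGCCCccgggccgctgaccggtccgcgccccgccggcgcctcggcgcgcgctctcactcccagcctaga
Prox1, chr1:190170778-190171077, minus strand: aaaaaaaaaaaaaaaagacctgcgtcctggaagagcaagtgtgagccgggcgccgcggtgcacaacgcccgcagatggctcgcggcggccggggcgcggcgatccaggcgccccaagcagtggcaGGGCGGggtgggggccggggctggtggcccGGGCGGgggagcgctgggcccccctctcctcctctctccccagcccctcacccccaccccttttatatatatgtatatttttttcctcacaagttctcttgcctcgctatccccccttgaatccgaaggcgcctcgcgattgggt
AGGAAG occurred 2 times in the Flt1 window and 0 times in the Kdr, Flt4 and Prox1 windows. It also occurred 2 times in the window of Tie1, which was low in EE 4 where Flt1 was not, and 0 times in that of Tek. Of the 32851 RefSeq windows of this length, 35.4% held it. GGGCGG occurred 3 times in Flt1, 2 times in Kdr, 3 times in Flt4 and 2 times in Prox1, against 35.7% of windows that held it at least once, and no match overlapped an AGGAAG match. RefSeq gives Prox1 another window, at chr1:190169466-190169765, with 1 GGGCGG and 0 AGGAAG. That window lies inside the annotated gene, while the one shown lies upstream of its annotated end at 190170714. CTTTGA, a core of TCF/LEF sites, was found in none of the 7 windows matched and in 16% of all windows. A match is only a match of letters, and the lack of one says nothing of the factor. RefSeq windows were matched for 6 of the 10 genes, and not for Pecam1, Cdh5, Vwf and Lyve1.

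The angiopoietin receptors were both low in EE 4. TEK (TIE2) binds angiopoietins and keeps vessels quiet and covered by mural cells, and TIE1 pairs with it. Tek measured 7.43, 9.76, 8.91 and 4.44 CPM across EE 1 to EE 4, against 10.3, 9.60, 8.92 and 9.95 CPM in NE 1 to NE 4. EE 2 lay inside the NE range, EE 3 lay just below it and EE 1 further below. For Tek it came to −0.34 on the log2 scale (SE 0.24, edgeR adjusted p = 0.609), and −0.14 (SE 0.18) without EE 4.

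Tie1 measured 9.34, 10.3, 9.07 and 4.44 CPM across EE 1 to EE 4, against 10.9, 13.8, 12.3 and 8.95 CPM in NE 1 to NE 4. EE 1, EE 2 and EE 3 all lay between NE 4 and the other NE libraries. Its log2 fold change was −0.48 (SE 0.27, edgeR adjusted p = 0.548), and −0.26 (SE 0.19) without EE 4. The ratio of Tek to Tie1 in CPM lay between 0.795 and 1 in EE and between 0.698 and 1.11 in NE, and EE 4 lay inside the NE range.

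Vwf encodes von Willebrand factor, the adhesive protein that endothelium and platelets store for clotting. It measured 44.6, 37.3, 49.7 and 29.3 CPM across EE 1 to EE 4, against 43.7, 38.3, 54.2 and 54.4 CPM in NE 1 to NE 4. EE 4 was again the lowest, and EE 2 also lay below the NE range. For Vwf the log2 fold change was −0.24 (SE 0.18, edgeR adjusted p = 0.619), and −0.11 (SE 0.16) without EE 4. The 3 platelet markers tested of 6 listed summed to between 11.4 and 14.4 CPM in EE and between 12.4 and 19.2 CPM in NE, and their part in the Vwf values was not tested.

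**Figure D2:**
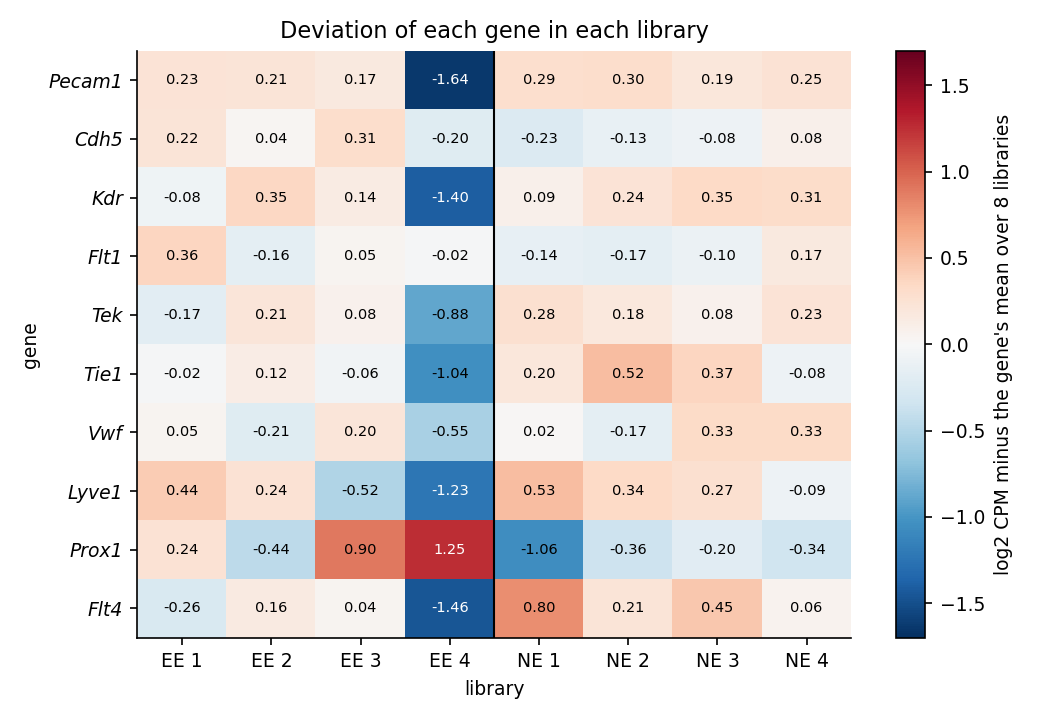
Log2 CPM of each gene in each library minus that gene's mean over the 8 libraries, with EE libraries left of the line and NE libraries right of it; blue is below and red above the gene's mean. The EE 4 column runs from −1.64 for Pecam1 to 1.25 for Prox1, with Cdh5 at −0.20 and Flt1 at −0.02.

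The blood vessel genes together showed where EE 4 differs. The 7 of them summed to 180, 170.1, 185 and 103 CPM in EE 1 to EE 4, against 171, 171, 186 and 192 CPM in NE 1 to NE 4. In EE 1, EE 2 and EE 3 this sum was close to or inside the NE range. In bulk tissue, fewer cells of a type and less RNA per cell cannot be told apart. Markers of other stromal cells moved with EE 4 as well: the 10 pericyte genes summed to 179 CPM there, against 636 to 1056 CPM in the other EE libraries and 884 to 1440 CPM in NE. The 10 smooth muscle genes summed to 688 CPM in EE 4, against 2339 to 4444 CPM in the other EE libraries and 3552 to 5727 CPM in NE, while the 8 fibroblast genes summed to 504 CPM in EE 4, against 1192 to 2034 CPM in the other EE libraries and 1522 to 1743 CPM in NE. Such sums lean on abundant genes: Des, also on the smooth muscle list, and Rgs5 made up most of the pericyte sum. The median deviation of log2 CPM in EE 4 from each gene's mean was −1.36 for pericyte genes. It was −2.33 for smooth muscle and −1.58 for fibroblast genes. Not every gene was low: Notch3 (7.29 CPM) and Fbln1 (56.1 CPM) lay inside their NE ranges in EE 4. The part of these stromal cells in the vessel gene values was not tested.

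The lymphatic genes Lyve1 and Flt4 had lower means in EE. LYVE1 is a hyaluronan receptor of lymphatic capillaries that some tissue macrophages also carry, and FLT4 (VEGFR3) receives the lymphatic growth factors VEGF-C and VEGF-D. Lyve1 measured 26.3, 23.0, 13.4 and 8.09 CPM across EE 1 to EE 4, against 28.1, 24.7, 23.5 and 18.2 CPM in NE 1 to NE 4. EE 3 and EE 4 lay below every NE library, and EE 1 and EE 2 lay inside the NE range. For Lyve1 the log2 fold change was −0.43 (SE 0.32, edgeR adjusted p = 0.612), with −0.18 (SE 0.23) without EE 4 and −0.68 (SE 0.31) without EE 1.

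The 9 macrophage markers tested of 10 listed (Emr1 being an older name of Adgre1) summed to 222, 272, 391 and 126 CPM in EE 1 to EE 4, against 294 to 337 CPM in NE. EE 3 had the highest macrophage sum and the second lowest Lyve1 value, but the genes in the sum were divided. C1qa, C1qb, C1qc, Csf1r, Adgre1 and Cd68 were highest in EE 3, and Mrc1 lay inside the NE range there. Cd163, a scavenger receptor of tissue macrophages, averaged 3.37 ± 2.91 CPM in EE and 6.74 ± 1.78 CPM in NE (SD, n = 4 each), with a single count in EE 4. It measured 5.52, 6.12, 1.66 and 0.159 CPM across EE 1 to EE 4, so EE 3 and EE 4 were lowest, as for Lyve1. Mertk averaged 30.9 ± 8.39 CPM in EE and 43.1 ± 3.49 CPM in NE. Every EE library lay below every NE library for Mertk (edgeR adjusted p = 0.520), as in 2.02% of all genes tested, and EE 3 was the lowest. Mertk was named for having the smallest p of the macrophage list, so its separation says little of that list. The 5 genes most like Lyve1 over the 8 libraries were Uchl1, Ric3, Hand2, Fat3 and Itga8, with Pearson correlations from 0.992 to 0.994. They are not on the macrophage list. The part of macrophages or of other cells in the Lyve1 difference was not tested.

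Flt4 measured 7.64, 10.3, 9.52 and 3.17 CPM across EE 1 to EE 4, against 16.3, 10.7, 12.8 and 9.61 CPM in NE 1 to NE 4. EE 1, EE 3 and EE 4 lay below every NE library, and EE 2 lay inside the NE range. On the log2 scale the difference was −0.69 (SE 0.33, edgeR adjusted p = 0.520), the most negative of the 10 genes, and −0.42 (SE 0.23) without EE 4. A two-sided exact permutation test on the CPM of Flt4 alone gave p = 0.0571 (n = 4 and 4), where the smallest p that this design allows is 0.0286. Flt4 rests on 20 to 136 counts per library.

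Prox1 (chr1:190118035-190170714, minus strand, GRCm38) encodes the homeobox factor that gives lymphatic endothelium its identity. Outside vessels it is known in enteroendocrine cells and, in mouse and human intestinal tumours, as a target of the β-catenin/TCF arm of Wnt signalling. It measured 176, 109, 278 and 354.5 CPM across EE 1 to EE 4, against 71.2, 116, 130 and 118 CPM in NE 1 to NE 4. EE 1, EE 3 and EE 4 lay above every NE library, and EE 2 lay inside the NE range. For Prox1 the log2 fold change was 1.08 (SE 0.33, unadjusted p = 0.00791, edgeR adjusted p = 0.520), and 0.80 (SE 0.30, edgeR adjusted p = 0.722) without EE 4. The exact permutation test on Prox1 alone gave a two-sided p of 0.114 (n = 4 and 4).

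Prox1 was the 1 gene of the 10 that the authors' deposited table lists under an FDR of 0.05, with an FDR of 1.07e-05 and a log2 fold change of −0.94, where negative values go with higher EE columns. In that list of all genes, 2.39% are under 0.05, made up of 1.07% with EE columns higher and 1.32% with NE columns higher. The lowest FDR of the other 9 in the authors' deposited table was 0.287, for Flt4. DESeq2 gave Prox1 an adjusted p of 0.153, limma-voom 0.451 and DESeq2 with one dispersion trend for all genes, an alternative added after the data were seen, 1.19e-05, where 1.95% of all genes were called. The call for Prox1 thus differed between these fits, while the value itself stayed between 0.97 and 1.09 on the log2 scale in all 4 of them (edgeR included). Without EE 2, edgeR put Prox1 at 1.31 on the log2 scale (SE 0.26), with an adjusted p of 0.0948. EE 2 was the EE library that lay among the NE values, so leaving it out was bound to widen the difference. Leaving out any other library gave edgeR log2 values from 0.80 (without EE 4) to 1.19 (without EE 1). The edgeR adjusted p then ran from 0.458 (without NE 4) to 0.843 (without NE 1).

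The antisense gene Prox1os shares 133 exon bases with Prox1 and had 32 counts over all 8 libraries. Strand use in counting is not stated, so reads of this overlap cannot be assigned to either. No other of the 10 genes shares exon bases with another annotated gene.

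**Figure D3:**
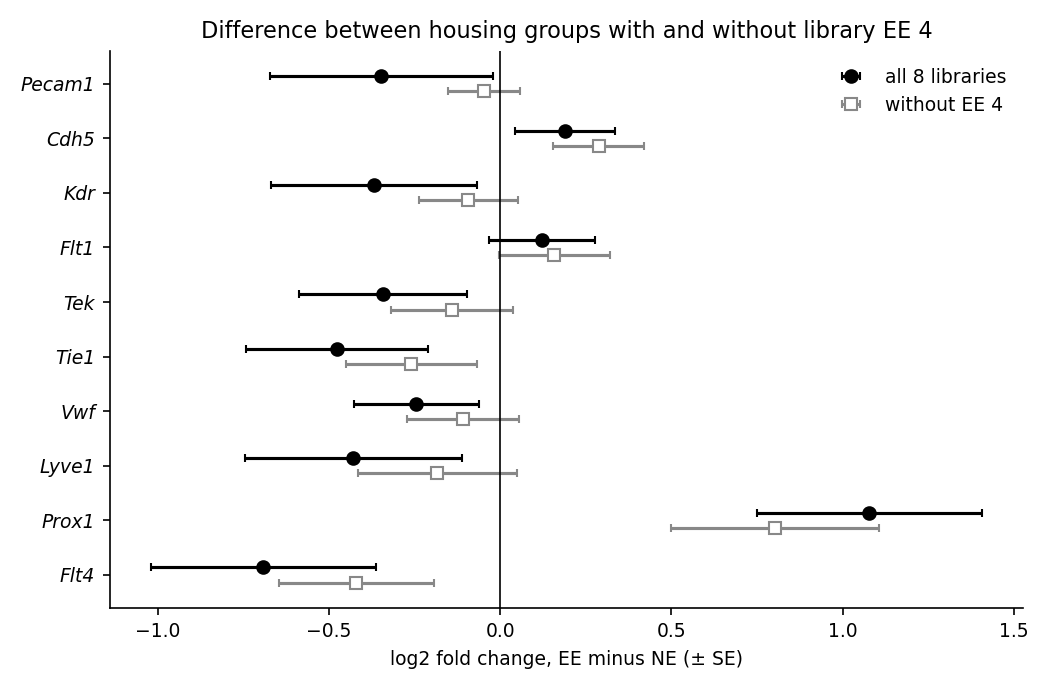
Log2 fold change (EE minus NE) ± SE from edgeR for each of the 10 genes, with all 8 libraries (filled circles) and without EE 4 (open squares). Prox1 stands at 1.08 and 0.80, and Pecam1 at −0.35 and −0.05.

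Prox1 and the other lymphatic genes moved apart from library to library. The ratio of Prox1 to Lyve1 in CPM was 6.69, 4.77, 20.7 and 43.8 in EE 1 to EE 4, against 2.53, 4.72, 5.54 and 6.45 in NE 1 to NE 4. The ratio of Prox1 to Flt4 was 23.1, 10.59, 29.2 and 112 in EE 1 to EE 4, against 4.38, 10.8, 10.2 and 12.2 in NE 1 to NE 4. Over the 8 libraries the Pearson correlation of log2 CPM was −0.85 between Prox1 and Lyve1 and −0.83 between Prox1 and Flt4, while Lyve1 and Flt4 had 0.83 with each other. Without EE 4 (7 libraries) these were −0.72, −0.70 and 0.36.

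The genes whose pattern was most like that of Prox1 were Lef1, Pgm2l1, Fam222a, Patz1 and Elk3, with Pearson correlations of log2 CPM from 0.986 to 0.995 over 8 libraries and from 0.975 to 0.995 over the 7 without EE 4. This search was run for each of the 10 genes and was added after the Prox1 values were seen. Libraries share depth and tissue makeup, so the values are a description. The 5 nearest genes had about as high correlations for Lyve1 (0.992 to 0.994, and 0.975 to 0.992 without EE 4). They were lower for others, such as Flt1 (0.908 to 0.960 over 8 libraries). Lef1, a transcription factor of the Wnt pathway and itself a Wnt target, measured 20.8, 13.6, 34.0 and 45.5 CPM across EE 1 to EE 4, against 9.47, 16.2, 17.8 and 15.7 CPM in NE 1 to NE 4. The libraries follow the same order as for Prox1 except that NE 2 and NE 4, which differ little in both, change places.

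A list of 12 Wnt target and crypt genes, also put together after the Prox1 values were seen, had a positive log2 fold change in 12 of 12 genes, with a median of 0.88 (0.62 without EE 4), and 0 of them passed the test over all genes. Over all genes, 49.7% had a negative log2 fold change. The Pearson correlation of these 12 genes with Prox1 ran from 0.758 for Ascl2 to 0.995 for Lef1, and from 0.643 to 0.991 without EE 4. Lef1 was already known from the search for genes like Prox1, so these values describe the list and test nothing. The 12 genes summed to 1213, 656, 1473 and 1839 CPM in EE 1 to EE 4, against 583 to 828 CPM in NE, so EE 2 lay inside the NE range here as well. The 5 enteroendocrine genes tested of 8 listed all had negative log2 fold changes, with a median of −0.74 (−0.58 without EE 4), and summed to between 205 and 291 CPM in EE and between 272 and 438 CPM in NE. Their Pearson correlation with Prox1 ran from −0.979 for Gcg to 0.150 for Pyy. The part of either list's cells in the Prox1 level was not tested.

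**Figure D4:**
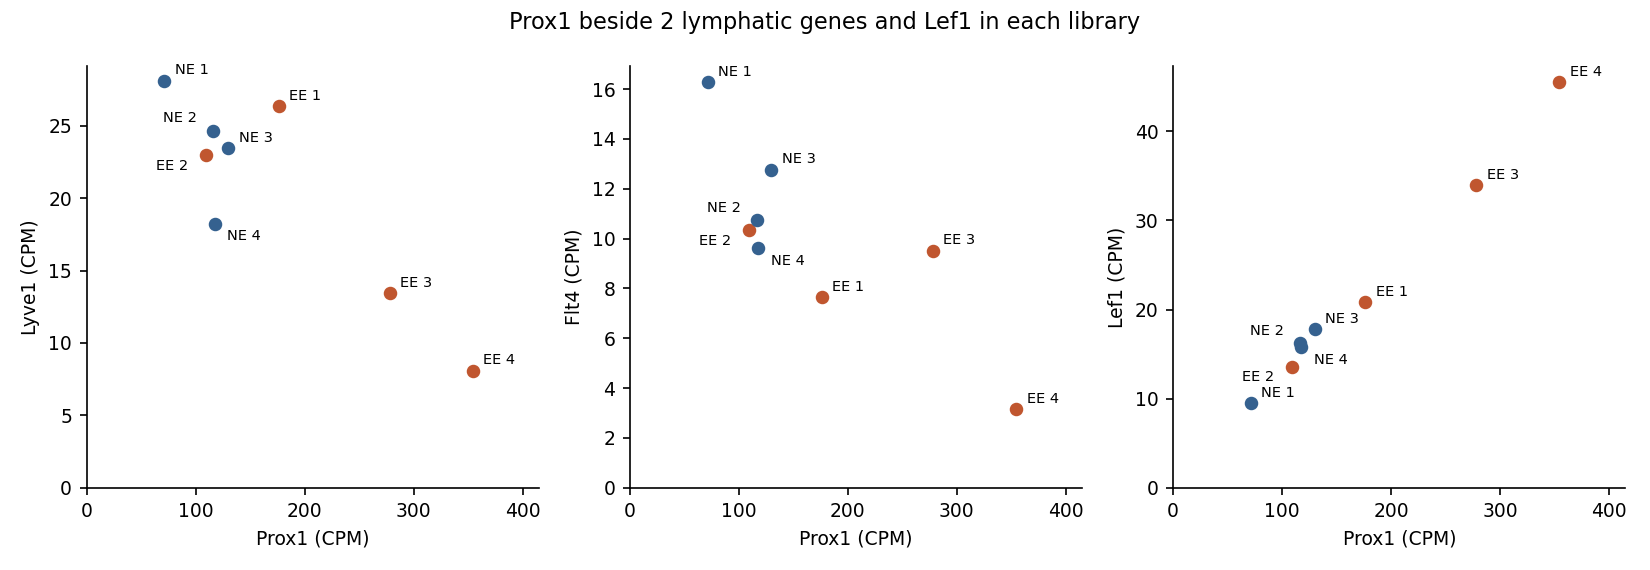
CPM of Lyve1, Flt4 and Lef1 (vertical axes) against CPM of Prox1 (horizontal axes), with 1 point per library and EE in orange. Lyve1 and Flt4 are lowest in EE 4, at 8.09 and 3.17 CPM, where Prox1 and Lef1 are highest, at 354.5 and 45.5 CPM.

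Per kilobase of merged annotated exons, Prox1 was the most abundant of the 10 transcripts in both groups, at 27.4 ± 12.9 CPM per kilobase in EE and 13.0 ± 3.07 in NE (SD, n = 4 each). In EE it was followed by Cdh5 (7.05 ± 1.07), Lyve1 (6.07 ± 2.88), Pecam1 (4.89 ± 2.18), Vwf (2.50 ± 0.552), Kdr (2.11 ± 0.903), Flt1 (1.78 ± 0.286), Tie1 (1.69 ± 0.534), Tek (1.62 ± 0.496) and Flt4 (0.931 ± 0.389). In NE the order was Lyve1 (8.09 ± 1.40), Pecam1 (6.21 ± 0.213), Cdh5 (6.18 ± 0.563), Vwf (2.97 ± 0.496), Kdr (2.72 ± 0.213), Tie1 (2.33 ± 0.417), Tek (2.05 ± 0.123), Flt1 (1.64 ± 0.188) and Flt4 (1.50 ± 0.354). Neighbours in these orders overlapped in their ranges over the 4 libraries, with 2 exceptions: Prox1 lay wholly above Cdh5 in EE, and Cdh5 lay wholly above Vwf in NE. The exon lengths sum all annotated isoforms, from 2.92 kilobases for Lyve1 to 16.1 for Vwf, so a gene with short isoforms in use, such as soluble Flt1, is understated.

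The likeness of the genes to Pecam1 rested largely on EE 4. Over 8 libraries the Pearson correlation of log2 CPM with Pecam1 was 0.963 for Kdr, 0.938 for Tek, 0.905 for Tie1, 0.891 for Flt4, 0.851 for Lyve1 and 0.716 for Vwf. It was 0.378 for Cdh5, 0.021 for Flt1 and −0.70 for Prox1. Over the 7 libraries without EE 4 the correlation with Pecam1 was −0.15 for Kdr, 0.39 for Tek, 0.44 for Tie1, 0.31 for Flt4, 0.63 for Lyve1 and −0.46 for Vwf. It was −0.67 for Cdh5, −0.20 for Flt1 and −0.72 for Prox1, so the sign turned for Kdr, Vwf, Cdh5 and Flt1. Cdh5 and Flt1 correlated with each other at 0.646 over 8 libraries and at 0.70 without EE 4.

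The 5 other genes whose pattern was most like the mean of the 10 standardised profiles were Hic1, Plpp3, C1s1, Fam212b and F2r, with Pearson correlations from 0.977 to 0.989 over the 8 libraries. All of them were lowest in EE 4: F2r, the thrombin receptor, stood at 7.61 CPM there, against 28.5 to 44.1 CPM in the other EE libraries and 31.7 to 33.4 CPM in NE. Without EE 4 the correlations were between 0.546 and 0.831 over 7 libraries.

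Ligands were divided in direction. Of 12 symbols listed for VEGF, angiopoietin and related ligands (Figf and Vegfd being 2 names of 1 gene, and Aplnr the receptor of apelin) 10 were tested, 6 with positive and 4 with negative log2 fold changes and a median of 0.13, and 0 passed in either direction. With 1 library left out the median ran from −0.012 without EE 1 to 0.19 without EE 4. Pgf, a ligand of the Flt1 product, averaged 8.26 ± 2.70 CPM in EE and 5.13 ± 0.980 CPM in NE (SD, n = 4 each). Angpt2, the angiopoietin that loosens vessels, averaged 27.95 ± 11.3 CPM in EE and 18.6 ± 8.53 CPM in NE. Vegfa averaged 71.5 ± 10.8 CPM in EE and 61.1 ± 8.22 CPM in NE, and the groups overlapped for all 3 genes.

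A list of 11 other endothelial receptors and partners joined the neuropilins Nrp1 and Nrp2, which bind VEGF, and genes such as Calcrl and Ramp2 (adrenomedullin), Acvrl1 and Eng (BMP), Ednrb (endothelin) and S1pr1 (sphingosine phosphate). Of these 11, 10 had negative log2 fold changes with a median of −0.31 (from −0.43 without EE 2 to −0.12 without EE 4), and 0 passed in either direction. Nrp2, the neuropilin that pairs with the Flt4 product on lymphatic endothelium, measured 83.2, 85.2, 62.4 and 72.5 CPM across EE 1 to EE 4, against 114, 99.3, 96.7 and 89.3 CPM in NE 1 to NE 4. All EE values lay below all NE values, as they did in 2.02% of all genes tested, and EE 3, not EE 4, was the lowest. Its log2 fold change was −0.40 (SE 0.13, edgeR adjusted p = 0.520). Calcrl, the adrenomedullin receptor, averaged 24.9 ± 10.3 CPM in EE and 37.8 ± 5.35 CPM in NE, and Nrp1 averaged 28.5 ± 5.63 CPM in EE and 35.2 ± 2.25 CPM in NE.

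General endothelial surface and junction genes were negative in 12 of 15, with a median log2 fold change of −0.39 (from −0.55 without EE 2 to −0.13 without EE 4), and 0 passed in either direction. Aqp1, a water channel of microvessels that red blood cells and other cells also make, measured 94.5, 83.1, 59.1 and 64.5 CPM across EE 1 to EE 4, against 118, 107, 110 and 97.0 CPM in NE 1 to NE 4. Clec14a, an endothelial lectin, measured 25.5, 27.8, 18.7 and 13.3 CPM across EE 1 to EE 4, against 41.8, 38.0, 31.8 and 29.2 CPM in NE 1 to NE 4. In both genes every EE library lay below every NE library, as in 2.02% of all genes tested, and the edgeR adjusted p was 0.520 for each. Both were named for having the smallest p of their list, so this separation says little of the list. Ecscr had a higher mean in EE, with 94.1 ± 29.4 CPM in EE and 65.5 ± 14.7 CPM in NE.

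The 6 red blood cell markers summed to between 499.96 and 591 CPM in EE and between 727 and 1230 CPM in NE, and their part in the Aqp1 values was not tested.

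Other lymphatic genes also had mostly negative fold changes. Of 12 listed, 11 were tested, 8 with negative log2 fold changes and a median of −0.48 (from −0.54 without EE 2 to −0.22 without EE 4), and 0 passed in either direction. Ccl21a, the chemokine that draws dendritic cells and lymphocytes into lymphatics and lymphoid tissue, averaged 8.92 ± 4.12 CPM in EE and 14.9 ± 1.88 CPM in NE. Itga9, an integrin of lymphatic valves, averaged 22.4 ± 6.27 CPM in EE and 31.2 ± 5.35 CPM in NE. Tbx1, a T-box factor active in other cells as well, averaged 5.96 ± 4.36 CPM in EE and 2.76 ± 1.13 CPM in NE.

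Endothelial transcription factors were split in direction. Of 13 transcription factors listed 10 were tested, 5 positive and 5 negative, with a median log2 fold change of −0.016, which was 0.026 with library totals alone as the scaling and between −0.052 without NE 1 and 0.04 without NE 4. Sox17, an arterial factor that is also made outside vessels, measured 47.1, 23.9, 62.9 and 88.0 CPM across EE 1 to EE 4, against 17.1, 29.0, 29.0 and 47.2 CPM in NE 1 to NE 4. EE 3 and EE 4 lay above every NE library. Of 11 genes listed as arterial and Notch genes 10 were tested, 7 of them positive, with a median of 0.079 (from 0.021 without NE 1 to 0.21 without NE 4). This list includes Ephb4, which is neither arterial nor a Notch gene and was among the positive ones, at 189 ± 38.9 CPM in EE and 162 ± 11.8 CPM in NE. Notch1 averaged 94.0 ± 45.6 CPM in EE and 68.9 ± 13.6 CPM in NE. The 4 tested leukocyte adhesion genes of 8 listed were 2 positive and 2 negative, with a median of −0.0016, and with Icam1 at 31.4 ± 14.4 CPM in EE and 26.5 ± 2.38 CPM in NE. The median of these adhesion genes was 0.041 under the scaling by library totals, −0.18 with no filter on low counts, −0.45 without EE 3 and 0.0999 without NE 4, so it has no settled direction. No gene of these 3 lists passed in either direction.

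**Figure D5:**
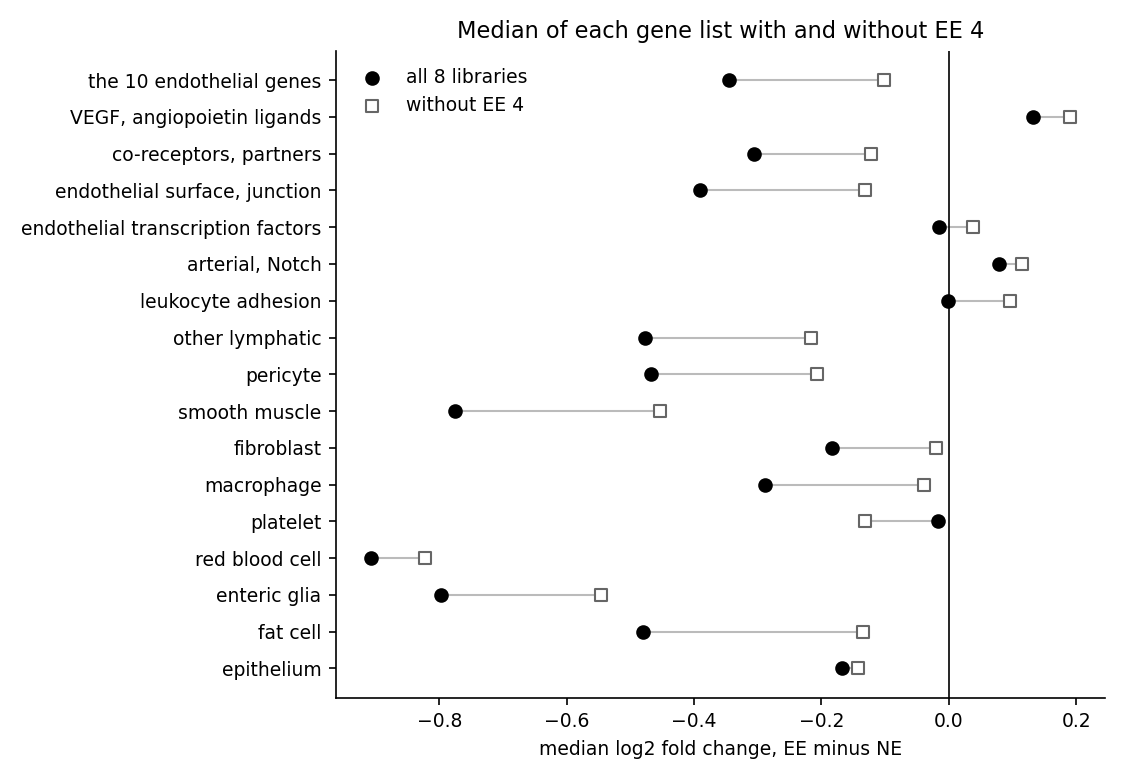
Median log2 fold change (EE minus NE) of each gene list, with all 8 libraries (filled circles) and without EE 4 (open squares). The median of the 10 endothelial genes is −0.34 and −0.10, that of pericyte genes −0.47 and −0.21, and that of red blood cell genes −0.91 and −0.82.

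Stromal lists were lower as medians too. The 10 pericyte genes were all negative, with a median log2 fold change of −0.47 (from −0.73 without EE 2 to −0.21 without EE 4), and Abcc9, a potassium channel subunit of pericytes, averaged 26.1 ± 13.5 CPM in EE and 42.6 ± 6.81 CPM in NE. The 10 smooth muscle genes were all negative as well, at −0.78 (from −1.04 without EE 2 to −0.45 without EE 4). The 8 fibroblast genes had a median of −0.18, which was −0.45 without EE 3, −0.40 with limma-voom and −0.02 without EE 4. The 10 epithelium genes had one of −0.17, with −0.29 without EE 1, −0.060 without NE 1 and −0.044 without EE 3. None of the genes in these 4 lists passed the test over all genes. The pericyte and smooth muscle lists share Des. The 4 enteric glia genes tested of 5 listed had a median of −0.80 (from −1.09 without EE 2 to −0.55 without EE 4). The 5 fat cell genes tested of 6 had one of −0.48, which was −1.57 without EE 2, −1.26 with limma-voom, −0.14 without EE 4 and 0.049 without NE 2, so its direction rests on NE 2. No glia or fat gene passed either.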

How the data were processed

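RNA from 8 distal colon samples was made into ribosomal RNA-depleted, stranded libraries and sequenced in single 50-base reads, per the labels' protocols. Novoalign 2.08.01, DESeq 1.14.0 and build mm10 are named in the submitters' processing notes; annotation, counting program and strand use: not given in the sources used here. The authors deposited 1 table of raw read counts per gene, in which the lowest total over the 8 libraries is 12, together with an FDR (adjusted p-value) and a log2 fold change from the authors' own comparison, as named per the file headers.

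In edgeR 4.0.16 (R 4.3.3), filterByExpr kept 14311 genes, TMM scaled the libraries, and the robust quasi-likelihood test compared EE with NE with no covariate and a threshold of 0.05. SE is the log2 fold change over the root of its F. CPM came from edgeR's cpm function, with a prior count of 2 where CPM was taken to log2. The biological coefficient of variation was 0.219. Alternatives were DESeq2 1.42.0, limma-voom (limma 3.58.1), RLE, upper-quartile and no scaling, no filter, at least 1 CPM in 4 libraries, the replicate number as a block, and each library left out. Fits were tested on simulated data. Gene positions, exon lengths and overlaps came from GENCODE M21 (GRCm38, the same build as mm10), upstream sequences from RefSeq. No pair of libraries agreed within sampling noise, the lowest chi-square per degree of freedom being 7.46.

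The 10 genes and the gene lists were chosen with earlier results of these data known. The text names all 10 genes, up to 3 genes of a list with the smallest p, and the 5 genes most like the mean of the 10. Cd163 and Icam1 fall under this rule. F2r among those 5, the Prox1 searches and the Wnt and enteroendocrine lists were singled out after their values were seen. So were the genes nearest to Lyve1 and Flt1.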

Additional observations from a re-analysis of the deposited data

Results flagged for a closer look

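Pecam1 in EE 4 lay far from the other 3 EE libraries, at 10.1 CPM against 36.3 to 38.0 CPM: the gap to the nearest one was 0.937 of the range of the group, above Dixon's 95% critical value for 4 samples. This was the 1 such case in 20 groups examined (10 genes in 2 groups), and chance alone gives about 1 in 20.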

How the results depend on the processing

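With edgeR, 0 genes and 0 of the 10 vessel genes were called under any scaling, filter or block. At an unadjusted p under 0.05 edgeR gave 1357 genes, DESeq2 1471 and limma-voom 1566. DESeq2 called 14 genes and none of the 10, limma-voom 0 genes, and DESeq2 with the trend dispersion, added after the data were seen, 274 genes and 1 of the 10 (Prox1, log2 fold change 1.09). Leaving out 1 library gave 0 to 1 genes called, and 1 only without EE 2. The median log2 fold change of the 10 was −0.34, −0.46 with limma-voom, −0.42 with the replicate block and between −0.47 (without EE 2) and −0.10 (without EE 4) with 1 library left out. It was −0.35 over the 9 genes other than Prox1. The sign of each of the 10 genes was the same under every alternative run. Same-numbered EE and NE libraries deviated together with correlations of 0.254, 0.010, −0.18 and −0.037, against −0.40 to 0.49 for differently numbered libraries. These few values cannot settle whether the numbers pair the samples. The replicate block left 0 genes called, gave 1406 genes an unadjusted p under 0.05 and gave 4 of the 10 such a p, against 1 without the block. Counts were as low as 20 for Flt4 and 28 for Tek and for Tie1, all in EE 4.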
